A study of Rattus norvegicus with 12 samples.

Results

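The Slc16 genes encode the monocarboxylate transporters of the plasma membrane, and their mRNA was followed in kidneys of 12 rats from 2 models of renal fibrosis. The members were taken by gene name, as the 9 genes Slc16a1, Slc16a3, Slc16a4, Slc16a7, Slc16a9, Slc16a10, Slc16a12, Slc16a13 and Slc16a14 of a family that holds 14 genes in RefSeq. A total of 8 of them were listed under these names, once in each table, among the 22132 entries of the control and adenine table and the 32623 entries of the sham and UUO table, and all 8 reached the minimum level for testing in both. Slc16a9 was not listed under its name. The entry AABR07044759, which RefSeq gives with a version suffix as a synonym of Slc16a9, was listed once in each table. It is described beside the members and is not counted among the 8.

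All rats were male SD rats labelled WT, bought at 8 weeks of age. For 3 weeks, rats of the adenine group were gavaged daily with 220 mg/kg adenine, and those of the control group were given saline instead. In the UUO group the left ureter had been ligated (unilateral ureteral obstruction) 2 weeks earlier, whereas the sham group had the same operation without ligation. Each group held 3 rats, each sequenced by itself from whole renal tissue, and the sources used here do not say which kidney of an operated rat was taken. Tissue RNA cannot tell a smaller number of cells of a type from less mRNA in each cell. Levels are FPKM, fragments scaled by transcript length and by mapped fragments, so they can be compared between genes, but the 2 tables were normalized separately and levels of one table are set beside those of the other only as a description.

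Monocarboxylate transporters move small organic acids such as lactate, pyruvate and ketone bodies across membranes, in the best studied members together with a proton. MCT1 and MCT4, the products of Slc16a1 and Slc16a3, need the glycoprotein basigin to reach the cell surface, and MCT4 is known as the lactate exporter of glycolytic cells such as activated macrophages. Other members carry other cargo. TAT1, from Slc16a10, carries aromatic amino acids, MCT12, from Slc16a12, carries creatine, and MCT9, from Slc16a9, carries carnitine. In the proximal tubule, such carriers pass reabsorbed solutes on to the blood, while lactate is taken up from the urine by sodium-coupled carriers of the Slc5 family. The substrates of the products of Slc16a4, Slc16a13 and Slc16a14 are less well known.

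The labelled tissue was checked against marker lists. Proximal tubule, thick limb, collecting duct and podocyte genes were present in every control and sham kidney, for example Slc34a1, the phosphate carrier of the proximal tubule, at 478 to 1034 FPKM and Umod, of the thick limb, at 1207 to 2490 FPKM. Pvalb, one of 3 markers of the distal convoluted tubule, was listed at the lowest value of its table in 10 of the 12 kidneys. Control replicate 2 stood apart, with Slc12a3 at 12.9 FPKM against 197 and 164 FPKM in the other control kidneys, so results that rest on it are given with and without it. A DEG was a gene with an adjusted p under 0.05 from limma, a linear model fitted over all tested entries of a table, and a log2 fold change, on the log2(FPKM + 0.1) scale, of 2 or more in either direction. Positive log2 fold changes mean higher in the adenine or UUO group. An exact two-sided permutation test of 3 kidneys against 3 cannot give a p below 0.1, the value reached by every gene below whose groups did not overlap.

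The family changed its make-up in both models. Slc16a4 was the most abundant member in control and sham kidneys and fell to a small part of the family total, whereas Slc16a3 and Slc16a1, the scarcest members in control kidneys, rose strongly in the adenine group. In the adenine model, 2 of 8 members were DEGs with higher levels, against 10.7% of all tested entries, and 2 were DEGs with lower levels, against 5.03% of all tested entries. In the UUO model, none of the 8 was a DEG with higher levels (2 had positive log2 fold changes, 1 of them with an adjusted p under 0.05), against 13.2% of all tested entries, and 3 were DEGs with lower levels, against 4.21%. By adjusted p alone, 2 members rose and 4 fell in the adenine model, where 39.6% of all tested entries rose and 19.9% fell. The UUO model had 1 such rise and 5 such falls among the members, where 56.1% of all tested entries rose and 14.4% fell. The members had a median log2 fold change of -1.25 with adenine, beside 0.30 over all tested entries, and of -1.37 after UUO, beside 0.62. Groups did not overlap for 7 of 8 members with adenine and 6 of 8 after UUO, beside 68% and 75.7% of all tested entries, so this share of the members was near the background. Under median-of-ratios scaling, which brought the median of all tested entries to 0.01 and 0.03, the DEGs became 2 higher and 4 lower with adenine and 0 higher and 4 lower after UUO.

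**Figure D1:**
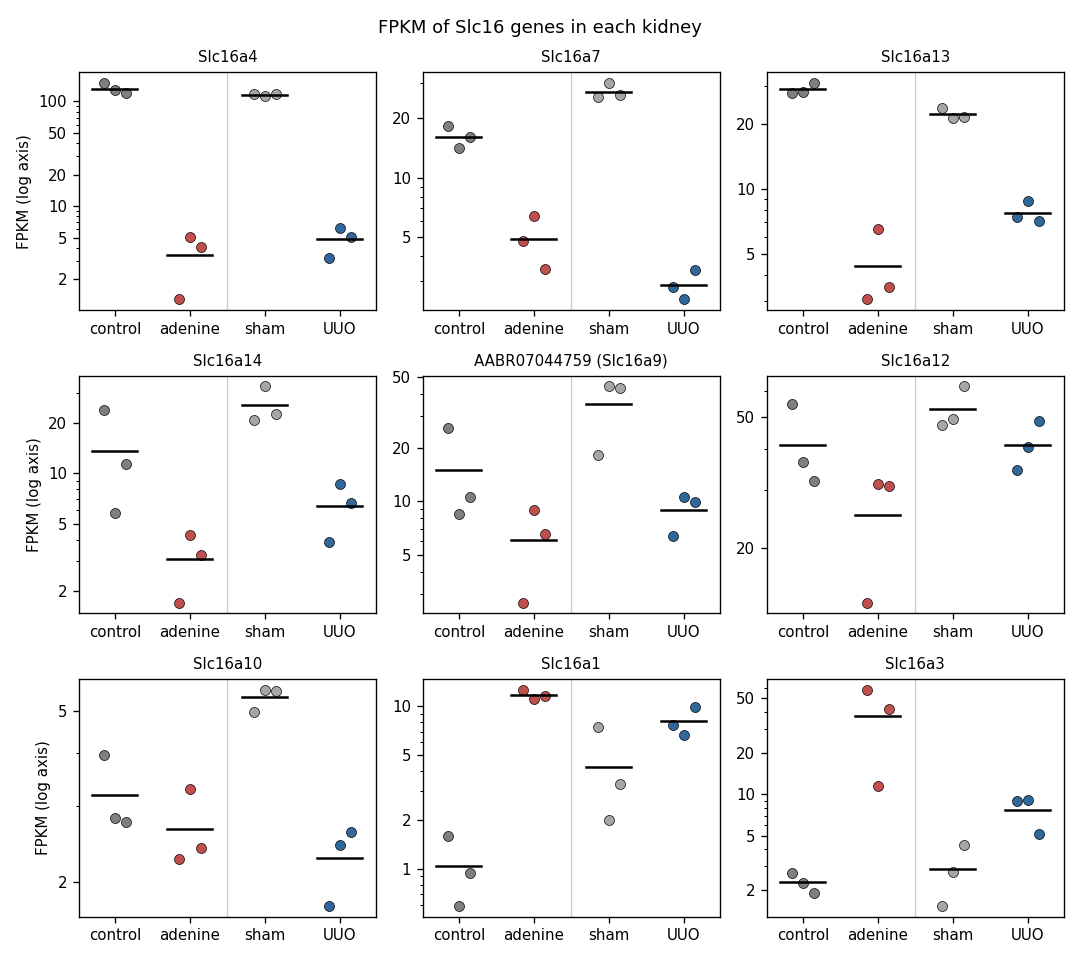
FPKM (log axis) of 8 Slc16 members and of the entry AABR07044759 in each of the 12 kidneys, with points for single kidneys and lines for group means; the grey line divides the tables, which were normalized separately. Slc16a4 stood at 113 FPKM or more in every control and sham kidney and at 6.13 FPKM or less in every adenine and UUO kidney, and Slc16a3 and Slc16a1 were higher in every adenine kidney than in every control kidney.

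Summed over the 8 members and AABR07044759, the FPKM of the family ranged from 225 to 309 in control kidneys and from 88.3 to 107 in adenine kidneys. The sums were 266 to 306 in sham kidneys and 76.8 to 98.6 in UUO kidneys. In both models the sums of the diseased kidneys thus lay below all those of their controls. Slc16a4 made up 48.4% to 56.4% of the sum in control and 37.6% to 43.8% in sham kidneys, but 1.28% to 5.68% in adenine and 4.18% to 6.42% in UUO kidneys. Slc16a3 went from 0.85% to 0.987% of the sum in control kidneys to 12.9% to 57.8% in adenine kidneys, a range that shows how unlike the adenine kidneys were in this gene. In UUO kidneys its share was 5.22% to 11.6%, against 0.581% to 1.39% in sham kidneys. The creatine carrier gene Slc16a12 held the largest share in every UUO kidney, 42.6% to 49.5%, against 16.4% to 20.3% in sham kidneys, while its own level did not pass the test.

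**Figure D2:**
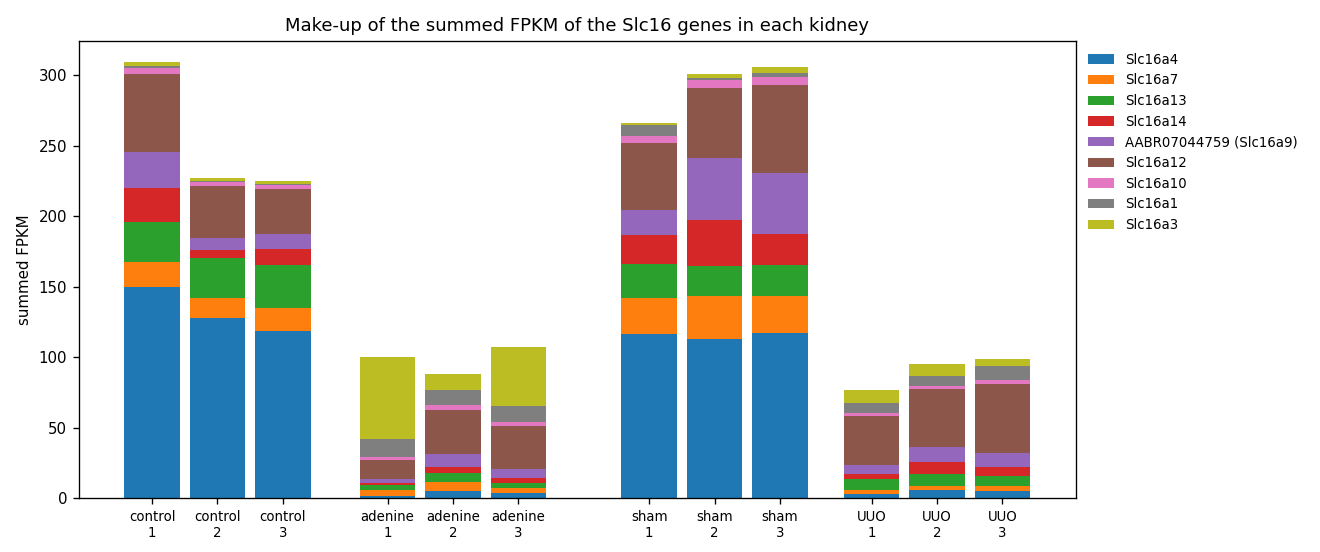
Summed FPKM (vertical axis) of the 8 Slc16 members and AABR07044759 in each kidney, stacked by gene. The blue part, Slc16a4, fills 37.6% to 56.4% of the control and sham columns, while Slc16a3 and Slc16a12 are the largest parts of each adenine column and Slc16a12 is the largest part of each UUO column.

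By mean level in control kidneys the members stood in the order Slc16a4 (132 FPKM), Slc16a12 (41.2 FPKM), Slc16a13 (29.1 FPKM), Slc16a7 (16.1 FPKM), AABR07044759 (14.9 FPKM), Slc16a14 (13.6 FPKM), Slc16a10 (3.18 FPKM), Slc16a3 (2.28 FPKM) and Slc16a1 (1.04 FPKM). Among neighbours in this order, values of Slc16a7 and AABR07044759 and of AABR07044759 and Slc16a14 overlapped between kidneys, so their order is not set by these samples, and Slc16a12 and Slc16a13 came close, with a lowest value of 32 against a highest of 31 FPKM. Sham kidneys had Slc16a4 (116 FPKM) and Slc16a12 (52.9 FPKM) at the top as well. In adenine kidneys Slc16a3 came first at 37 FPKM, overlapping Slc16a12 at 25.4 FPKM, and Slc16a1 followed at 11.8 FPKM. In UUO kidneys Slc16a12 came first at 41.4 FPKM without overlap with any other member, and the means of the other 7 members and AABR07044759 lay between 2.27 and 8.99 FPKM. Among the 5 further genes of the family, Slc16a8, known from the retinal pigment epithelium, was at or below 0.168 FPKM in all kidneys and was not tested.

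Upstream sequences are shown for the 2 members with the strongest rises and 2 members with strong falls, since these pairs moved in opposite directions. RefSeq promoters on GRCr8 were found for 6 of the 9 members. Each line gives the 250 bases before the annotated start, 5′ to 3′ on the strand of the gene, in lower case. Capitals mark the letters ACGTG or GCGTG (the core of hypoxia response elements), GTTAAT (part of HNF1 sites) and CAAAGT (part of HNF4 sites) on either strand, where overlapping matches were each counted.
Slc16a1 (chr2:194812410-194812659, plus strand): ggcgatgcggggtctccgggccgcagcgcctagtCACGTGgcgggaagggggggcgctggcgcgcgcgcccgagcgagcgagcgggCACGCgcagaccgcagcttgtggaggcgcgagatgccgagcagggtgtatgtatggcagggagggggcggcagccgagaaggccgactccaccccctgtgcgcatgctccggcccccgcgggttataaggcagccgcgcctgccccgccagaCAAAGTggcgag
Slc16a3 (chr10:106712078-106712327, plus strand): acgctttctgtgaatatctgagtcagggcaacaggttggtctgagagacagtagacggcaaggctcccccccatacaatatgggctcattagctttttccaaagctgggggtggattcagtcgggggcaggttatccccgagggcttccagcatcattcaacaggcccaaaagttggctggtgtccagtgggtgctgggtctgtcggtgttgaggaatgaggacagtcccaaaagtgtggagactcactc
Slc16a4 (chr2:197599190-197599439, plus strand): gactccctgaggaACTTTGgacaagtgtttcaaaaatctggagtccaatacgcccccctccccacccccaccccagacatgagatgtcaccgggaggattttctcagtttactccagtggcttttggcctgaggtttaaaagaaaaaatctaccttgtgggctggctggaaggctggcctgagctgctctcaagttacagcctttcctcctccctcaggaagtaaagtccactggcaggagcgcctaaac
Slc16a7 (chr7:63040399-63040648, minus strand): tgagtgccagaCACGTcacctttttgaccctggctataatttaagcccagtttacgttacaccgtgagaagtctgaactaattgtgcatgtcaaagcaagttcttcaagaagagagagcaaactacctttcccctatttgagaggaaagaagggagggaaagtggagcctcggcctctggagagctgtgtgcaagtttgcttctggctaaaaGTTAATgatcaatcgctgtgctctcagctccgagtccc
The window of Slc16a1 held 3 matches to the hypoxia core, of which CACGTG counts once on each strand, and 74% of its bases were G or C. A hypoxia core also stood in the windows of Slc16a7 and Slc16a10 and in 36.7% of all 33469 promoters of the same length. GTTAAT was found in Slc16a7 and in 6.45% of all promoters, and CAAAGT in Slc16a1, Slc16a4 and Slc16a12 and in 12.9% of all promoters. None of these letters stood in the window of Slc16a3. A match is a description of letters and not of binding.

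The lactate transporter genes Slc16a1 and Slc16a3 rose with adenine, while after UUO the adjusted p was passed by Slc16a3 alone of the 2, at a smaller fold. Slc16a1 (MCT1, a carrier of lactate, pyruvate and ketone bodies) was at 1.6, 0.593 and 0.939 FPKM in control kidneys and at 12.7, 11.1 and 11.6 FPKM in adenine kidneys. The 3 adenine kidneys were close to each other and all lay far above the control kidneys. Means were 1.04 ± 0.509 FPKM in control and 11.8 ± 0.796 FPKM in adenine kidneys (SD, n = 3 each), which is 11.3-fold higher. The log2 fold change was 3.48 (SE 0.32, limma adjusted p = 0.000207). After UUO surgery or its sham, Slc16a1 was at 7.43, 2.01 and 3.35 FPKM in sham kidneys and at 7.68, 6.71 and 9.92 FPKM in UUO kidneys. Sham replicate 1 reached into the range of the UUO group, so the groups overlapped, and the log2 fold change of 1.09 (SE 0.45, 95% confidence interval 0.03 to 2.15) had a limma adjusted p of 0.0624. Without sham replicate 1 it was 1.59 with an adjusted p of 0.00381, and it also passed under equal-sum scaling (1.31, adjusted p = 0.031). It was 0.67 without sham replicate 2 (adjusted p = 0.156) and 0.50 with median-of-ratios scaling (adjusted p = 0.362).

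Slc16a3 (MCT4) was at 2.69, 2.24 and 1.91 FPKM in control kidneys and at 58, 11.4 and 41.7 FPKM in adenine kidneys. All adenine kidneys lay above all control kidneys, although adenine replicate 2 had much less than the other two. The mean went from 2.28 ± 0.392 to 37 ± 23.6 FPKM (SD, n = 3 each), a 16.2-fold rise (log2 fold change 3.68, SE 0.57, limma adjusted p = 0.00172). Sham kidneys held 1.54, 2.71 and 4.25 FPKM and UUO kidneys 8.91, 9.05 and 5.15 FPKM. These groups did not overlap either, with UUO replicate 3 nearest to the sham range. The UUO log2 fold change was 1.48 (SE 0.39, limma adjusted p = 0.013), under the fold threshold of a DEG, and with median-of-ratios scaling it was 0.89 with an adjusted p of 0.0967. Testing every entry without a minimum level also ended the call (adjusted p = 0.0756).

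Markers of leukocytes, injured tubule and fibroblasts rose in the same groups as Slc16a3. All 6 leukocyte genes (Ptprc, Cd68, Csf1r, Itgam, Lyz2 and Cd3e) were DEGs with higher levels in both models, and none was at the lowest value of its table in any group. Their summed level was 158 to 228 FPKM in control kidneys and 13025, 6380 and 9666 FPKM in adenine replicates 1 to 3, of which Lyz2 made up 12329, 5964 and 9046 FPKM. In adenine replicate 2, the kidney with the least Slc16a3 of its group, 5 of the 6 were lowest, while Cd3e was highest there. The sums were 186 to 310 FPKM in sham kidneys and 2070, 1949 and 1389 FPKM in UUO kidneys. In UUO replicate 3, which had the least Slc16a3, only Lyz2 and Cd68 were lowest, the other 4 being lowest in replicate 2. The 3 injured tubule genes rose by adjusted p in both models, with sums of 6.39 to 12.3 FPKM in control and 8.69 to 11.6 FPKM in sham kidneys. Their sums were 440, 666 and 617 FPKM in adenine replicates 1 to 3 and 447, 572 and 540 FPKM in UUO replicates 1 to 3. All 3 genes were lowest in adenine replicate 1, the kidney with the most Slc16a3 of its group. The 4 fibroblast and myofibroblast genes rose in both as well, with sums of 47.8 to 63.2 FPKM in control and 32.2 to 74.2 FPKM in sham kidneys. Replicates 1 to 3 held 408, 522 and 454 FPKM with adenine and 1747, 1295 and 620 FPKM after UUO. In adenine replicate 2, 0 of these 4 genes were lowest, and in UUO replicate 3, 3 of the 4 were. Of the same 4 genes, Acta2 did not pass with adenine without control replicate 2 (log2 fold change 0.77, limma adjusted p = 0.0561). With median-of-ratios scaling it did not pass there either (0.66, adjusted p = 0.0683). The part of any of these cells in the rise of Slc16a3 was not tested. Slc16a1 was at 12.7, 11.1 and 11.6 FPKM in the same adenine kidneys, and its relation to these markers was not tested either.

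Slc16a4 fell the most of the members in both models. It encodes a transporter of uncertain cargo and was the most abundant member in healthy kidney. Control kidneys held 149, 128 and 119 FPKM and adenine kidneys 1.29, 5.02 and 4.05 FPKM. Every adenine kidney was thus far below every control kidney, and the mean of 132 ± 15.8 FPKM was 38.3-fold that of the adenine group, 3.45 ± 1.94 FPKM (SD, n = 3 each). The log2 fold change was -5.41 (SE 0.47, limma adjusted p = 0.000162). Sham kidneys were nearly equal at 117, 113 and 117 FPKM, and UUO kidneys held 3.21, 6.13 and 5.09 FPKM. The sham mean of 116 ± 2.28 FPKM was 24-fold the UUO mean of 4.81 ± 1.48 FPKM (log2 fold change -4.61, SE 0.22, limma adjusted p = 1.52e-05). Slc16a4 stayed a DEG with lower levels under all 14 alternatives in each model.

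Slc16a7 encodes MCT2, a transporter with high affinity for lactate and pyruvate. It was at 18.2, 14.1 and 16 FPKM in control kidneys and at 4.79, 6.42 and 3.44 FPKM in adenine kidneys, and at 25.4, 30 and 26.2 FPKM in sham kidneys and 2.79, 2.42 and 3.39 FPKM in UUO kidneys. The groups of both models stood apart, with the wider gap in the UUO model. Its log2 fold change with adenine was -1.74 (SE 0.24, limma adjusted p = 0.000982), under the fold threshold, and that after UUO was -3.21 (SE 0.15, limma adjusted p = 1.46e-05), where it was a DEG. Median-of-ratios scaling took the adenine value to -2.03, past the threshold.

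Slc16a13 encodes MCT13. Control kidneys held 28, 28.3 and 31 FPKM and adenine kidneys 3.07, 6.55 and 3.51 FPKM, and sham kidneys held 23.8, 21.3 and 21.7 FPKM and UUO kidneys 7.4, 8.83 and 7.08 FPKM. Diseased kidneys were below their controls in both models without overlap, by more in the adenine model. With adenine the log2 fold change was -2.78 (SE 0.27, limma adjusted p = 0.000266), a DEG, and after UUO -1.51 (SE 0.12, limma adjusted p = 6.90e-05), which became -2.11 under median-of-ratios scaling. In RefSeq, Slc16a11 lies within the span of Slc16a13, so fragments may have been shared between them and the value of Slc16a13 is uncertain to that extent. Slc16a11 fell too, from 30.5, 32.3 and 33 FPKM in control to 5.42, 7.54 and 5.14 FPKM in adenine kidneys (log2 fold change -2.40, SE 0.16, limma adjusted p = 7.04e-05) and from a sham mean of 16.5 ± 1.07 FPKM to a UUO mean of 7.93 ± 0.907 FPKM (log2 fold change -1.06, SE 0.12, limma adjusted p = 0.000304).

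Slc16a14 encodes MCT14. In control kidneys it varied widely, at 23.8, 5.77 and 11.3 FPKM, and adenine kidneys held 1.7, 4.3 and 3.25 FPKM. The lowest control kidney, replicate 2, was only a little above the highest adenine kidney. Its log2 fold change, -1.97 (SE 0.55, limma adjusted p = 0.0195), was just under the fold threshold. Without control replicate 2 it was -2.47 (adjusted p = 0.00794), past the threshold, whereas without adenine replicate 1 (-1.61) or without control replicate 3 (-1.99) its adjusted p was 0.0556 or 0.0509. After UUO it went from 20.7, 32.8 and 22.5 FPKM in sham kidneys to 3.87, 8.64 and 6.66 FPKM in UUO kidneys, with a clear gap between the groups. There its log2 fold change, -2.01 (SE 0.31, limma adjusted p = 0.00122), was just past the threshold, and it was -1.69 without UUO replicate 1, -1.81 without sham replicate 2 and -1.79 under equal-sum scaling, each under it.

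The entry AABR07044759, named in RefSeq as a synonym of the carnitine transporter gene Slc16a9, was at 25.7, 8.43 and 10.5 FPKM in control kidneys and at 2.7, 8.92 and 6.53 FPKM in adenine kidneys. Control replicate 2 lay below adenine replicate 2, and the log2 fold change of -1.27 (SE 0.55, 95% confidence interval -2.59 to 0.05) did not pass (limma adjusted p = 0.0873). It was -1.59 without control replicate 2 (adjusted p = 0.0689) and passed under median-of-ratios scaling (-1.56, adjusted p = 0.0419). It fell after UUO from 18.2, 44.1 and 43.1 FPKM in sham kidneys to 6.42, 10.6 and 9.91 FPKM in UUO kidneys. The groups did not overlap, although sham replicate 1 had much less than the other sham kidneys, and the log2 fold change was -1.88 (SE 0.38, limma adjusted p = 0.00375). Without sham replicate 1 it was -2.30, past the fold threshold, as it was without UUO replicate 2 (-2.02) and under median-of-ratios scaling (-2.48).

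Slc16a10, the gene of the aromatic amino acid transporter TAT1, was scarce in all groups. It was at 3.96, 2.82 and 2.76 FPKM in control kidneys and at 2.26, 3.3 and 2.4 FPKM in adenine kidneys, and these groups overlapped. The adenine log2 fold change of -0.25 (SE 0.23, 95% confidence interval -0.80 to 0.29, limma adjusted p = 0.37) turned to 0.01 under equal-sum scaling. After UUO it fell from 4.97, 5.61 and 5.56 FPKM to 1.76, 2.44 and 2.61 FPKM, with all UUO kidneys below all sham kidneys. The log2 fold change was -1.23 (SE 0.19, limma adjusted p = 0.00114), under the fold threshold of a DEG.

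Slc16a12, the gene of the creatine transporter MCT12, did not pass the test in either model. It was at 55.1, 36.5 and 32 FPKM in control kidneys and at 13.7, 31.3 and 31 FPKM in adenine kidneys. The groups did not overlap, but only adenine replicate 1 was far below the control range, and the log2 fold change was -0.75 (SE 0.36, 95% confidence interval -1.62 to 0.11, limma adjusted p = 0.114). Sham kidneys held 47.3, 49.4 and 62.1 FPKM and UUO kidneys 34.7, 40.6 and 48.7 FPKM. Here the groups overlapped (log2 fold change -0.36, SE 0.16, 95% confidence interval -0.74 to 0.02, limma adjusted p = 0.0796). Under median-of-ratios scaling Slc16a12 passed the adjusted p both with adenine (-1.05, adjusted p = 0.0366) and after UUO (-0.96, adjusted p = 0.00124), and without UUO replicate 3 the UUO value was -0.48 (adjusted p = 0.0338).

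**Figure D3:**
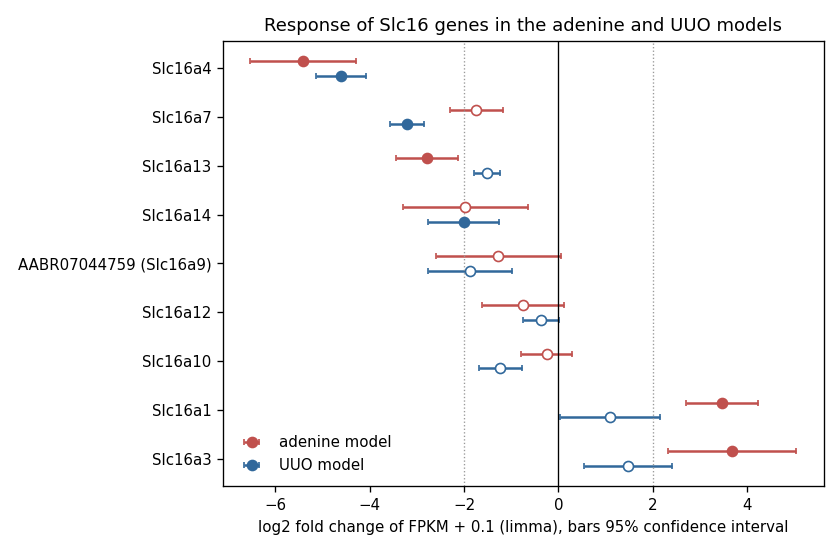
Log2 fold change of FPKM + 0.1 (horizontal axis, limma, bars 95% confidence interval) of each Slc16 gene in the adenine (red) and UUO (blue) models; filled points are DEGs, and the dotted lines mark the fold threshold of 2. Slc16a4 is a DEG with lower levels in both models, whereas Slc16a1 and Slc16a3 are DEGs with higher levels in the adenine model at 3.48 and 3.68.

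Many markers of the proximal tubule and of other nephron segments fell in the same groups as the members that fell. Of the 8 proximal tubule genes, 5 fell and 0 rose by adjusted p with adenine, and 6 fell and 0 rose after UUO. Beside them, 19.9% and 14.4% of all tested entries fell. Slc5a2 and Cubn passed in neither model, with log2 fold changes of 2.78 (1.39 without control replicate 2) and -0.34 with adenine. After UUO these were 0.05 and -0.48, or -0.55 and -1.08 with median-of-ratios scaling, where Cubn passed (limma adjusted p = 0.0152). Slc22a8 did not pass with adenine (-1.02). The summed level of the 8 genes was 1560 to 2311 FPKM in control kidneys and 166, 505 and 280 FPKM in adenine replicates 1 to 3. None of the 8 was at the lowest value of its table in all kidneys of a group. Of the 4 members that fell with adenine, Slc16a4, Slc16a13 and Slc16a14 had the same order among the adenine kidneys, lowest in replicate 1 and highest in replicate 2, while Slc16a7 was lowest in replicate 3. This order was not particular to the proximal tubule. Sums of distal convoluted tubule (13.8, 92.3 and 17.9 FPKM), podocyte (21.8, 56.3 and 25.6 FPKM) and injured tubule genes (440, 666 and 617 FPKM) had it too. Sums of thick limb (354, 202 and 156 FPKM), collecting duct and intercalated cell genes instead fell from replicate 1 to replicate 3. The sums of the 8 proximal tubule genes were 2202 to 2474 FPKM in sham kidneys and 311, 585 and 371 FPKM in UUO replicates 1 to 3. This order was shared by Slc16a4 and Slc16a14 of the 5 members that fell after UUO, and not by Slc16a7, Slc16a10 and Slc16a13. The injured tubule sums had it as well (447, 572 and 540 FPKM), and the thick limb sums did not (150, 104 and 252 FPKM). All 3 thick limb genes fell in both models, with sums of 1497 to 1815 FPKM in control, 156 to 354 FPKM in adenine, 2169 to 2815 FPKM in sham and 104 to 252 FPKM in UUO kidneys. Both intercalated cell genes fell in both models, and of the 4 collecting duct genes 2 fell with adenine (3 without control replicate 2) and 4 after UUO. Of the 2 tested distal convoluted tubule genes, 0 fell with adenine (1 without control replicate 2) and 2 after UUO. Of the 3 podocyte genes, 1 fell in each model, and 3 fell with adenine without control replicate 2. Of the 3 markers of the straight part of the proximal tubule, 2 fell in both models. Slc7a13 was at 956 to 1997 FPKM in control and sham kidneys and at 0.785 to 5.04 FPKM in adenine and UUO kidneys. Slc22a7 had log2 fold changes of -4.97 and -4.92. Slc5a1 had -0.66 and -0.62 without passing (limma adjusted p = 0.206 and 0.136). With median-of-ratios scaling Slc5a1 passed after UUO (-1.22, adjusted p = 0.0177). Whether the falls of the members come with fewer cells of these segments was not tested.

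The responses of the members differed between the models in 5 of 8 cases by adjusted p, against 27% of 13486 genes tested in both tables. The test compared the 2 log2 fold changes with their summed errors, each table fitted by itself. Both lactate transporter genes had higher log2 fold changes in the adenine model. The difference was 2.38 for Slc16a1 (SE 0.55, 95% confidence interval 1.2 to 3.57, adjusted p = 0.0073). For Slc16a3 it was 2.21 (SE 0.69, 95% confidence interval 0.71 to 3.70, adjusted p = 0.0316). These genes were the 2 of 8 members with a difference of at least 2, against 2.88% of all genes compared. Mean Slc16a1 was 1.04 FPKM in control and 4.26 FPKM in sham kidneys, and 11.8 FPKM in adenine and 8.1 FPKM in UUO kidneys. Its difference thus holds unlike levels of the comparison groups, in tables normalized separately. The difference for Slc16a1 was 1.89 without sham replicate 1 (adjusted p = 0.00815). That for Slc16a3 lost its adjusted p when any one of 7 kidneys was left out, with values from 1.74 to 2.2 and adjusted p from 0.0501 to 0.0864.

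Slc16a7 fell more in the UUO model, with an adenine minus UUO difference of 1.48 (SE 0.28, adjusted p = 0.00269), and Slc16a13 fell more in the adenine model, with a difference of -1.27 (SE 0.30, adjusted p = 0.00818). Slc16a11, which overlaps Slc16a13, had a like difference of -1.35 (SE 0.20, adjusted p = 0.00078). Slc16a10 had a difference of 0.97 (SE 0.30, adjusted p = 0.0275), which lost its adjusted p when any one of 5 kidneys was left out (0.0509 to 0.0706). Its means were 3.18 FPKM in control and 5.38 FPKM in sham kidneys, and 2.65 FPKM in adenine and 2.27 FPKM in UUO kidneys. For Slc16a4 the difference was -0.81 (95% confidence interval -1.92 to 0.31, adjusted p = 0.263), for Slc16a12 it was -0.40 (-1.25 to 0.46, adjusted p = 0.486) and for Slc16a14 it was 0.04 (-1.33 to 1.41, adjusted p = 0.969). These intervals leave room for differences between the models of more than 1 on the log2 scale in at least one direction.

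Genes whose level followed a member most closely were ranked by Pearson correlation of log2(FPKM + 0.1) over the 12 kidneys, after centring each table, among the same 13486 genes. For Slc16a3 they were Aldoa (0.969), a glycolytic enzyme, Rilpl2 (0.965) and LOC497796 (0.962). For Slc16a4 they were Slc22a25 (0.998), Mgam (0.997), a brush border glucosidase, and Rida (0.996). The kidneys fall into diseased and healthy clusters, so many genes that differ between these reach high values, and the numbers describe likeness only. Among the members, Slc16a13 followed Slc16a4 at 0.97 and ran against Slc16a3 at -0.96.

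Genes that work with the transporters were taken as lists, whose counts stand beside the 39.6% of all tested entries that rose and the 19.9% that fell with adenine, and the 56.1% that rose and the 14.4% that fell after UUO. Of the 3 chaperones, Bsg (basigin) was abundant in all kidneys, at 370 to 416 FPKM in control and 246 to 336 FPKM in adenine kidneys (log2 fold change -0.50, SE 0.15, limma adjusted p = 0.0245), and had -0.26 in the UUO model (adjusted p = 0.101). Emb (embigin), the partner of MCT2, rose in the adenine model from 23.8, 12.8 and 22.9 to 83, 35.2 and 53.8 FPKM (log2 fold change 1.49, adjusted p = 0.0113) and had -0.23 in the UUO model (adjusted p = 0.158). The difference between the models was 1.72 for Emb (SE 0.39, adjusted p = 0.00653). Nptn (neuroplastin) rose by 0.82 with adenine and by 0.53 after UUO, where median-of-ratios scaling turned it to -0.07. With that scaling Bsg and Emb passed as lower after UUO (-0.86 and -0.83), and with equal-sum scaling the adenine value of Bsg was -0.23 and did not pass (adjusted p = 0.222), nor did it without control replicate 2 (-0.48, adjusted p = 0.0513). Bsg, the partner gene of Slc16a1 and Slc16a3, was thus lower in every adenine kidney than in every control kidney, where both transporter genes were higher.

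The sodium-coupled lactate carriers diverged in the adenine model. Slc5a8, of high affinity for lactate, fell as a DEG in both models, from 6.83, 5.62 and 10.3 to 0.671, 3.63 and 2.05 FPKM with adenine (log2 fold change -2.02, adjusted p = 0.0197, or -1.76 with equal-sum scaling) and with a log2 fold change of -3.47 after UUO. Slc5a12, of low affinity, rose as a DEG in the adenine model, from 1.81, 0.0254 and 0.362 to 3.22, 10.7 and 12.5 FPKM (log2 fold change 4.0, SE 1.0, adjusted p = 0.013), and had -0.04 in the UUO model (0.18 with equal-sum scaling). Control replicate 2, which was low in other cortical genes, had the lowest Slc5a12 too, and without it the adenine log2 fold change of Slc5a12 was 3.03 (adjusted p = 0.0239).

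Of 12 listed genes of lactate and pyruvate use, 7 fell and 2 rose by adjusted p in the adenine model, 4 of them DEGs with lower levels, and 8 fell and 1 rose in the UUO model, 3 of them such DEGs. Ldha, the lactate dehydrogenase subunit of glycolytic tissue, rose by 1.17 (adjusted p = 0.00134) and 0.76 (adjusted p = 0.00099), the latter 0.15 with an adjusted p of 0.365 under median-of-ratios scaling, whereas Ldhd, the dehydrogenase of D-lactate, fell (-3.32 and -2.98). The subunits of the mitochondrial pyruvate carrier fell in both models, Mpc1 with log2 fold changes of -2.09 and -1.96 and Mpc2 with -2.91 and -2.09, and so did Pc, pyruvate carboxylase, with -2.17 and -2.84. The genes of the pyruvate dehydrogenase E1 subunits, Pdha1 and Pdhb, fell with log2 fold changes between -1.35 and -1.05. Median log2 fold changes of this list were -0.93 and -1.08.

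Glycolysis genes had a median log2 fold change of 0.73 with adenine, beside 0.30 over all tested entries, and of 0.05 after UUO, beside 0.62. Of the 15 tested, 9 rose and 0 fell by adjusted p (7 rose and 4 fell with median-of-ratios scaling, 9 and 2 without control replicate 2), 3 of them DEGs: Hk2 (4.21) and Hk3 (5.08), hexokinases of growing and of myeloid cells, and the glucose transporter gene Slc2a3 (2.29). In the UUO model, 6 of 14 rose and 4 fell (2 and 7 with median-of-ratios scaling), a smaller share of rises than the 56.1% of all tested entries, with Hk2 (2.71) and Hk3 (2.63) as DEGs. Slc2a3 was not tested there, since too few kidneys reached the minimum level. It was at 0.0001 FPKM in every sham kidney and at 5.59, 2.22 and 0.291 FPKM in UUO kidneys. Log2 fold changes of Pkm, Slc2a1 and Hk3 were larger in the adenine model, by 1.3 (adjusted p = 0.00222), 1.93 (adjusted p = 0.00411) and 2.45 (adjusted p = 0.00183), which is the direction of the difference for Slc16a3 and Slc16a1. In the ketone body list, 4 of 5 fell in each model, with Oxct1, which starts ketone use, at -2.15 and -1.82 and Acat1 at -1.65 and -2.15.

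**Figure D4:**
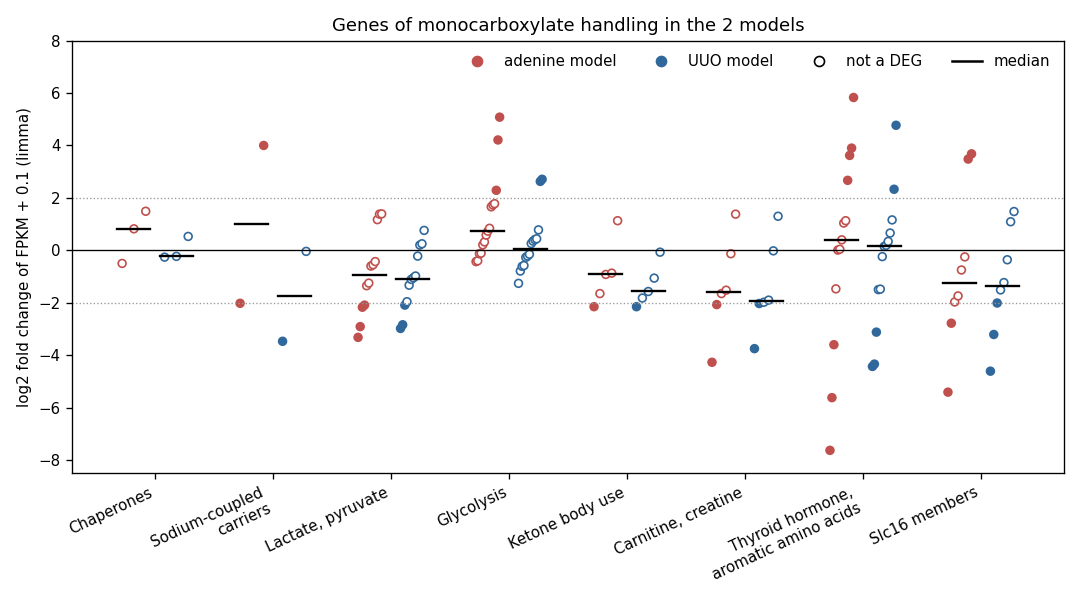
Log2 fold change of FPKM + 0.1 (vertical axis, limma) of every tested gene in 7 lists of monocarboxylate handling and of the 8 Slc16 members, with red points for the adenine and blue points for the UUO model; filled points are DEGs, black bars are list medians and dotted lines mark the fold threshold of 2. Medians of the lactate and pyruvate list are -0.93 and -1.08, those of glycolysis 0.73 and 0.05, the latter -0.55 with median-of-ratios scaling.

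The cargo of the other members was followed in 2 more lists. Among 6 tested genes of carnitine and creatine handling, 3 fell and 1 rose with adenine, and 4 fell and 1 rose after UUO. Tmlhe, of carnitine synthesis, fell with log2 fold changes of -4.27 and -3.75 and Slc22a5, which takes up carnitine, with -1.65 and -1.98, beside the log2 fold changes of -1.27 and -1.88 for AABR07044759. Gatm, which makes the creatine precursor, was at 604, 112 and 188 FPKM in control and 37, 170 and 85.9 FPKM in adenine kidneys, which overlapped (-1.52, adjusted p = 0.12, or -2.05, adjusted p = 0.0651, without control replicate 2), and fell after UUO (-2.03). The creatine carrier gene Slc6a8 had -0.13 and -0.02 without passing (0.14 and 0.21 with equal-sum scaling, and -0.62 with an adjusted p of 0.00198 after UUO with median-of-ratios scaling).

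Among 13 tested genes of thyroid hormone and aromatic amino acid handling, 5 rose and 4 fell with adenine, and 3 rose and 5 fell after UUO (2 and 7 with median-of-ratios scaling, 5 and 5 with equal-sum scaling). The share that rose with adenine was near the 39.6% of all tested entries, and the share that rose after UUO was below the 56.1%. Dio1, which activates thyroid hormone, fell with log2 fold changes of -7.63 and -4.43, and Dio3, which inactivates it, rose with 5.83 and 4.77 from levels at or below 0.0528 FPKM. Crym, a thyroid hormone binding protein, fell likewise (-3.60 and -3.12). The thyroid hormone carrier genes went apart, with Slco4c1 at -5.62 and -4.34 and Slco4a1 at 3.90 (4.80 without control replicate 2) and 2.33. Of the further genes of the family, Slc16a5 fell in both (-1.36, adjusted p = 0.0262, and -1.32, adjusted p = 0.0131), and Slc16a6 had 0.30 and -0.02 without passing (0.19 in the second with equal-sum scaling).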

How the data were processed

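RNA-seq of 12 kidneys (poly(A) selected, dUTP-marked second strand, paired-end NovaSeq) was taken from 2 deposited tables of FPKM per gene, which the authors made by trimming, mapping, merging of transcripts and scaling. The submitters' processing notes name cutadapt 1.9, HISAT2 2.0.4 and StringTie 1.3.4d, and also edgeR and DESeq2, which were not used here. The genome build, the annotation and whether fragments were assigned by strand are not given in the sources used here. The 2 tables list 22132 and 32623 entries, with lowest values of 0 and 0.0001. The number of reads is unknown, and low values gave no common step from which whole reads could be recovered (at most 6.5% of low genes shared the commonest ratio between samples), so no counting error was computed. Summed FPKM per kidney ranged from 468389 to 582725 and from 528811 to 630244.

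Samples were grouped by their labels, 3 separate rats in each of 4 groups. Each table was fitted by itself with limma 3.58.1 in R 4.3.3 (eBayes with a trend) on log2(FPKM + 0.1), over entries that reached an FPKM of 0.5 in 3 or more of the 6 kidneys (15029 and 15043 entries), with Benjamini-Hochberg adjustment over all of them. The added 0.1 understates changes of low genes. The difference between the models was tested over 13486 symbols listed once and tested in both. The script was tested on simulated data. Exact permutation tests were two-sided. The members, lists and thresholds were chosen with earlier results of these data known. Named genes were all members, genes of the lists set beside a member, and the 3 genes most like the member with the largest summed rise and the member with the largest summed fall. The alternatives were pseudocounts of 1 and 0.01, no minimum and a minimum FPKM of 1, median-of-ratios and equal-sum scaling, no trend, a replicate block and leaving out each kidney. Some genes of the lists are not reported here.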

Additional observations from a re-analysis of the deposited data

Results flagged for a closer look

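The response of 5 members differed between the adenine and the UUO model by a test of the difference itself. Adenine minus UUO, on the log2 scale, it was 2.38 for Slc16a1 and 2.21 for Slc16a3, whose log2 fold changes were higher with adenine. It was 1.48 for Slc16a7 and 0.97 for Slc16a10, which fell more in the UUO model. It was -1.27 for Slc16a13, which fell more with adenine and overlaps Slc16a11. The comparison groups differed in level too, for example with mean Slc16a1 at 1.04 FPKM in control and 4.26 FPKM in sham kidneys. The models differ in agent, duration, surgery and table, which cannot be told apart here. Groups of 3 kidneys were too small to test single kidneys as outliers.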

How the results depend on the processing

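Of 224 member fold changes under alternatives (14 for each model), 212 kept their direction and their side of the DEG thresholds, 7 newly passed, 4 no longer passed and 1 turned, Slc16a10 in the adenine model at 0.01 with equal-sum scaling. The counts of DEGs stayed within 4 to 6 of 8 in the adenine model and 2 to 4 in the UUO model. The count of members differing between the models by at least 2 was 2, but 1 with no filter and 1 with pseudocount 1, and 1 to 2 when single kidneys were left out. The count by adjusted p alone was 5, and 3 to 5 with single kidneys left out. The Slc16a14 difference changed sign when single kidneys were left out, ranging from -0.45 to 0.56. Alternatives for single genes of the other lists were chosen after seeing the data. There, equal-sum scaling turned Slc6a8 to 0.14 with adenine and 0.21 after UUO, and Slc5a12 to 0.18 and Slc16a6 to 0.19 after UUO. Median-of-ratios scaling turned Nptn to -0.07 and Slc5a2 to -0.55 after UUO. The causes were not tested. Same-numbered kidneys come from different rats, so the numbers do not pair them by animal. Their deviations correlated at -0.12 to -0.05 in the adenine and 0.05 to 0.11 in the UUO table. With 3 kidneys a group, such values cannot decide whether same-numbered kidneys had anything else in common. With the replicate block, 5 of 8 members had an adjusted p under 0.05 in the adenine model (6 without it) and 8 of 8 in the UUO model (6 without it), while DEGs were 4 and 3. In the UUO table every kidney correlated best with its own number, and in the adenine table none did. Depth is unknown, and 3 kidneys a group limit the precision.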

Other observations

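Sham replicate 1, the sham kidney with the most Slc16a1 (7.43 FPKM against 2.01 and 3.35 FPKM), also held the most Pdk4, the kinase that shuts off pyruvate dehydrogenase (33.9 FPKM against 2.48 and 4.26 FPKM). This gene was picked after its values were seen. Control replicate 2 had the least Slc16a1 of the control kidneys, 0.593 FPKM against 1.6 and 0.939 FPKM, and the least Pdk4, 1.41 FPKM against 7.71 and 8.53 FPKM. Urothelial markers, summed over 4 genes, were at 62.1 to 117 FPKM in UUO kidneys and at or below 1.1 FPKM in sham kidneys, while in the adenine model they were at 0.438 to 2.06 FPKM against 0.331 to 3.51 FPKM in control kidneys. Their part in the UUO values of the Slc16 genes was not tested.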
